A study of Mus musculus with 9 samples.

Results

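The Cyp2a and Cyp2b genes encode cytochrome P450 enzymes, and all 9 genes searched for by symbol (4 Cyp2a and 5 Cyp2b) were present among the 20325 genes of each deposited table. They were followed in messenger RNA of 9 whole livers from male C57BL/6J mice on chow, 3 livers in each of 3 groups. The GF mice were kept germ-free, and so were the GF+SCFA mice, whose drinking water held the short-chain fatty acids that gut bacteria make: acetate at 67.5 mM, propionate at 25.9 mM and butyrate at 40 mM. The ConvD mice were germ-free mice gavaged with cecal contents of conventionally raised donors. The growth protocol puts the gavage at 15 weeks of age, colonisation at 4 weeks and dissection at 19 weeks, while the design text gives an age of 14 weeks. Mice were caged by colonisation status, so cage and group cannot be told apart. The labels call the 3 samples of a group biological replicates without naming the animals, so a p-value here measures the spread of these samples, which may be technical in part.

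P450 enzymes of the endoplasmic reticulum add oxygen to drugs, steroids, bile acids and fatty acids, using electrons handed on by the reductase Por. The Cyp2b genes are the classical targets of the constitutive androstane receptor CAR (Nr1i3), which foreign chemicals activate in hepatocytes, and the related pregnane X receptor PXR (Nr1i2) shares many of its targets. Cyp2a5 hydroxylates coumarin and nicotine and is expressed in hepatocytes near the central vein. Cyp2a4, Cyp2b9 and Cyp2b13 are known as genes with higher expression in female than in male mouse liver.

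All 9 genes lie in 1 cluster on chromosome 7, which in the RefSeq annotation holds 13 protein-coding Cyp2 genes and 4 pseudogenes. Along the cluster the order is Cyp2s1, Cyp2b10, Cyp2b13, Cyp2b9, Cyp2a4, Cyp2b23, Cyp2b19, Cyp2g1, Cyp2a5, Cyp2a22, Cyp2a12, Cyp2f2 and Cyp2t4. Several members are close copies. In GENCODE release M21 (GRCm38) the coding sequences of Cyp2a4 and Cyp2a5 are identical at 98.4% of 1482 bases (23 differences). Those of Cyp2a12 and Cyp2a22 are identical at 97% of 1476 bases, and those of Cyp2b9 and Cyp2b13 at 92.7% of 1473 bases. Cyp2b9 and Cyp2b10 share 87.8% of bases. Of the 50-base stretches of the Cyp2a4 transcript, 36.1% also occur in the Cyp2a5 transcript. The same holds for 27.5% of those of Cyp2a12 in Cyp2a22 and 10.8% of those of Cyp2b9 in Cyp2b13. A read inside such a stretch could come from either gene, and the authors' counting program divides it between them, so the values of Cyp2a4, Cyp2a22 and Cyp2b13 are uncertain.

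The copies are also alike before their start sites. The windows below are bases upstream of every annotated start (RefSeq promoters, GRCm38.p6, plus strand, not the mm9 build of the authors), shown because each pair joins an expressed gene to a copy that was almost silent in these livers. In the first pair, Cyp2a5 (chr7:26835089-26835304) and Cyp2a4 (chr7:26306942-26307157), capitals mark the bases that differ, which are T18C, C130T, A160G and T204G, counted from 1 at the left end of the Cyp2a5 window, with the Cyp2a5 base first.
Cyp2a5: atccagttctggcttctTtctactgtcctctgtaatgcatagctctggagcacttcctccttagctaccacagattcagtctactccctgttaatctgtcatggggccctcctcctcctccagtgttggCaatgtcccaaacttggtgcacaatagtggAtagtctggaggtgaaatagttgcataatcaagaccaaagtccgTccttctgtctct
Cyp2a4: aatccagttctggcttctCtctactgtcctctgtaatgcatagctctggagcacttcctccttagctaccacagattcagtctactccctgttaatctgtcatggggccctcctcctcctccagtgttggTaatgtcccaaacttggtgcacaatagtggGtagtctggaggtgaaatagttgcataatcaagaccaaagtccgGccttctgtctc
In the other pair, Cyp2b9 (chr7:26173159-26173301) and Cyp2b13 (chr7:26061245-26061387), capitals mark T48C and C104T, counted likewise from the left end of the Cyp2b9 window with the Cyp2b9 base first.
Cyp2b9: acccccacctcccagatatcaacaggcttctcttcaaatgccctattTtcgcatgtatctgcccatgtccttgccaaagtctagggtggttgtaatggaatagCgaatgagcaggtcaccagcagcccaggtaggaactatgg
Cyp2b13: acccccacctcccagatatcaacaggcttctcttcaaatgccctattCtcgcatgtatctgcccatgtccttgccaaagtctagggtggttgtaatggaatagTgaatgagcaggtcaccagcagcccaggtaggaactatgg
Over the 250 bases before the RefSeq start, identity was 98.4% for Cyp2a5 and Cyp2a4 (249 bases aligned) and 99.2% for Cyp2b9 and Cyp2b13. Cyp2a12 and Cyp2a22, not shown, were less alike at 89.1% (239 bases aligned, 19 substitutions and 7 gap bases). Cyp2b10, the phenobarbital-induced gene of the family, is shown for contrast. Its window (chr7:25897408-25897619) carries capitals where the base differs from Cyp2b9 or lies in a gap of the alignment with it. Bases at its left end, before the Cyp2b9 window begins, have no partner and stay in lower case. Identity with Cyp2b9 was 71.7% over the aligned stretch.
Cyp2b10: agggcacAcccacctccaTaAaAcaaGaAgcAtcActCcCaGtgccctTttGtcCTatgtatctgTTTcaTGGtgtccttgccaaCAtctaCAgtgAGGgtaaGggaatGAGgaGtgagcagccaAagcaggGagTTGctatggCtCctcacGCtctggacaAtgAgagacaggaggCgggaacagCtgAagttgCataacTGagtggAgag
The known phenobarbital-responsive enhancer of Cyp2b10 lies further upstream than this window. A set of 6 short motifs was searched on both strands in the 250 bases before each RefSeq start, for the 9 members and for 32851 promoters. These 250 bases reach further right than the printed windows. The further bases lie past another annotated start of Cyp2b10 or of at least 1 gene of each printed pair. TATAAA was found in all 4 Cyp2a promoters, in 0 of the 5 Cyp2b promoters and in 12.4% of all promoters. In Cyp2a5 and Cyp2a4 it began at -29 and -28 from the RefSeq start, among those further bases. The nuclear receptor hexamer AGGTCA was found in Cyp2b9, Cyp2b13, Cyp2b19 and Cyp2b23, not in Cyp2b10, and in 14% of all promoters. Its direct repeat with a spacer of 4 bases (0.0152% of promoters), the E-box CACGTG (6.02%), the D-box TTATGTAA or TTACGTAA (0.931%) and the STAT motif TTCNNNGAA (7.02%) had no match in a member.

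Levels between genes are given as TPM (transcript abundance that the authors scaled by gene length and depth). Cyp2a5 was highest, at 1000 ± 181 TPM in GF, 1047 ± 103 in GF+SCFA and 1068 ± 312 in ConvD livers (SD, n = 3 each), rank 114 of all genes. Cyp2a12, which restores a hydroxyl group to bile acids that gut bacteria have altered, followed at 631 ± 15.6, 676 ± 34.2 and 583 ± 7.81 TPM (SD, n = 3 each). Over the 9 livers the ranges of Cyp2a5 (805 to 1413 TPM) and Cyp2a12 (575 to 711 TPM) did not overlap, and Cyp2a12 lay 38.9-fold above the next gene. Cyp2b10 (2.42 to 32.5 TPM), Cyp2a22 (4.01 to 6.92 TPM) and Cyp2b9 (0.45 to 7.41 TPM) overlapped each with its neighbour in this order. Cyp2a4 came sixth with 0.09 to 0.78 TPM, which overlapped Cyp2b9. The Cyp2a total exceeded the Cyp2b total 87.7-fold on average, and 44.3-fold to 480-fold in single livers.

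**Figure D1:**
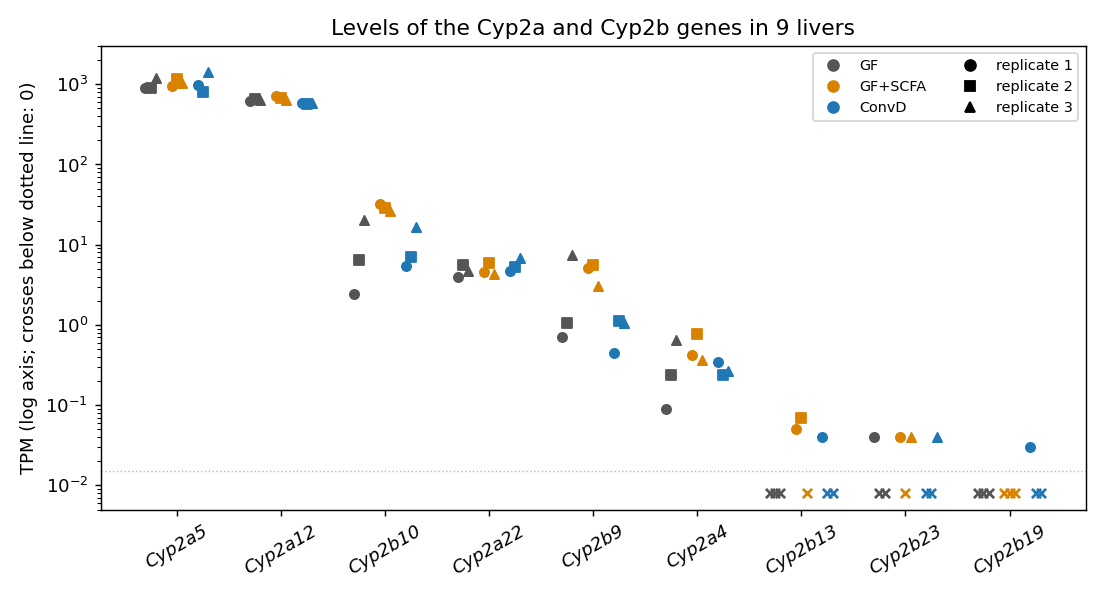
Each point is 1 liver, with the gene on the x axis and TPM on a log y axis, coloured by group; crosses below the dotted line are livers listed at 0. Cyp2a5 and Cyp2a12 sit at 575 to 1413 TPM in all 9 livers, while Cyp2b13, Cyp2b23 and Cyp2b19 are at 0 in most.

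Within each pair of near copies 1 gene held almost all of the signal. Mean TPM of Cyp2a5 was 2740-fold that of Cyp2a4 (1480-fold to 10000-fold in single livers), and Cyp2a4 made up 0.00995% to 0.0675% of the pair. Mean TPM of Cyp2b9 was 159-fold that of Cyp2b13. Cyp2a12 averaged 630 TPM over the 9 livers and its near copy Cyp2a22 5.11 TPM. Cyp2a4 counts were estimated at 1.84 to 16.8 per library and were whole in 0 of 9 libraries, so reads shared with Cyp2a5 bear on all of them. Cyp2b9 counts were whole in 8 of 9 libraries (within 0.005). Adding Cyp2b13 to Cyp2b9 or Cyp2a4 to Cyp2a5 changed no call, but the added counts were too small to move one. Over the 9 libraries Cyp2a4 totalled 71.8 counts beside 195357 of Cyp2a5, and Cyp2b13 3.68 beside 588 of Cyp2b9. The sums therefore do not show whether shared reads were divided correctly. Cyp2a12 and Cyp2a22 were not summed.

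The other Cyp2b genes were at or near 0. Cyp2b13 had an expected count of 1.00 in GF+SCFA replicate 1, 1.77 in GF+SCFA replicate 2 and 0.91 in ConvD replicate 1, and 0 in the other 6 libraries. Cyp2b23 had a count of 1 in 4 libraries, and Cyp2b19, an epoxygenase of skin keratinocytes, a count of 1 in ConvD replicate 1 alone. A count of 0 allows up to 3 counts, which corresponds to 0.141 to 0.17 CPM in these libraries (counting error only). Of 6 keratinocyte markers, 4 were at 0 in every liver, and the 6 summed to 0.57 to 1.04 TPM, above Cyp2b19 at up to 0.03 TPM. Cyp2a4, Cyp2b13, Cyp2b19 and Cyp2b23 failed the filter on low counts, so 5 members were tested among 12037 genes.

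Library totals were 18193071 to 21627696 expected counts. Replicate 3 stood apart in the GF and the ConvD group: its counts differed from those of its group with a chi-square per degree of freedom of 34 to 53.5, against 15 and 21.4 between replicates 1 and 2 of those groups and 11.1 to 14.5 among GF+SCFA livers. Results are therefore given with and without these livers where that moves them. Summed hepatocyte markers overlapped between groups (97946 to 128087 TPM). Kupffer cell markers summed to 298 to 418 TPM in GF, 343 to 422 in GF+SCFA and 488 to 677 in ConvD livers, and neutrophil and monocyte markers to 5.67 to 12.4, 7.33 to 8.37 and 38.9 to 60.7 TPM. In the edgeR fit 8 of 12 Kupffer and 5 of 7 tested neutrophil markers were called higher in ConvD than in GF livers, and no defining marker of either list was at 0 in all livers. In whole liver, fewer cells of a type and less RNA per cell cannot be told apart.

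Group comparisons use CPM (expected counts relative to library totals after TMM scaling), which compare a gene with itself. A gene is called when its adjusted p in edgeR's quasi-likelihood test, over all 12037 genes, is under 0.05. Of the 5 tested members, 0 were called in ConvD against GF, where edgeR called 12.8% of all genes (5.93% higher, 6.9% lower), and 1 had groups that did not overlap (31.6% of all genes). GF+SCFA against GF gave 0 members called (0.0415% of all genes, 0.00831% higher and 0.0332% lower), and Cyp2b10 alone did not overlap (17.9% of all genes). Between ConvD and GF+SCFA 1 member was called, lower in ConvD (18.4% of all genes, 9.44% higher and 8.97% lower), and 3 did not overlap (38% of all genes). At an unadjusted p under 0.05 in edgeR the members were 1 (Cyp2a12), 0 and 2 (Cyp2a12 and Cyp2b9) in these comparisons, beside 28.6%, 12.3% and 33.1% of all genes. With DESeq2 the members called were 0, 0 and 2. The edgeR percentages above are not the background of these counts: in GF+SCFA against GF DESeq2 called 82 of all genes. Without GF replicate 3 the members called in GF+SCFA against GF were 1, beside 173 of all genes. The comparisons share groups, so they are not independent of each other.

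**Figure D2:**
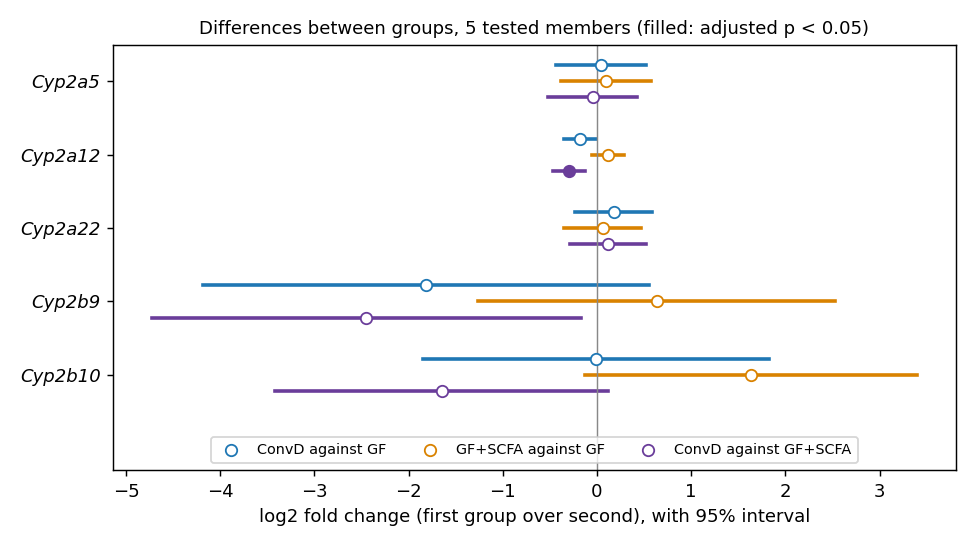
The x axis gives log2 fold changes with 95% intervals from edgeR for the 5 tested members (y axis) in the 3 comparisons; the filled point has an adjusted p under 0.05. Intervals of the Cyp2a genes stay within 0.60 of 0, and those of Cyp2b9 and Cyp2b10 reach -4.73 and 3.40.

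Cyp2a5 measured 1001, 1010.5 and 1219 CPM in GF replicates 1 to 3, 1063, 1235 and 1147 CPM in GF+SCFA replicates, and 967, 839.6 and 1529 CPM in ConvD replicates. The groups overlapped fully, and the ConvD livers held both the lowest and the highest value. Against GF the log2 fold change was 0.05 in ConvD (SE 0.206, 95% interval -0.43 to 0.52, edgeR adjusted p = 0.916) and 0.09 in GF+SCFA (SE 0.206, interval -0.38 to 0.57, edgeR adjusted p = 0.895). ConvD against GF+SCFA stood at -0.05 (interval -0.52 to 0.42, edgeR adjusted p = 0.9). Without ConvD replicate 3 that difference was -0.35 and passed the test (edgeR adjusted p = 0.0411).

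Cyp2a12 was the only member called in the edgeR fit described above with all 9 livers; DESeq2 and a dispersion that was not robust also called Cyp2b9 in ConvD against GF+SCFA (adjusted p = 0.0343 and 0.0345). It measured 659, 711 and 619 CPM in GF replicates 1 to 3, 770.5, 698 and 691 CPM in GF+SCFA replicates, and 556, 580.2 and 618 CPM in ConvD replicates. Every ConvD liver lay below every liver of the other groups, although ConvD replicate 3 and GF replicate 3 nearly met. Cyp2a12 fell by 0.30 on the log2 scale in ConvD against GF+SCFA (SE 0.0804, 95% interval of the difference -0.47 to -0.13, edgeR adjusted p = 0.0196, lower in 3 of 3 livers), a 1.23-fold difference. Against GF it stood at -0.18 in ConvD (SE 0.0803, interval -0.35 to -0.01, edgeR adjusted p = 0.153) and at 0.12 in GF+SCFA (SE 0.0803, interval -0.05 to 0.29, edgeR adjusted p = 0.584). The call of ConvD against GF+SCFA held in 15 of 20 alternative settings, with values from -0.34 to -0.21 (adjusted p = 0.00446 to 0.0896). It was lost without GF+SCFA replicate 1 (-0.25), ConvD replicate 1 (-0.27) or ConvD replicate 2 (-0.29), and on deposited TPM with limma (-0.21). In the same comparison 3 of 12 Kupffer and 6 of 7 tested neutrophil markers were called higher in ConvD, beside 9.44% of all genes. Those markers were higher where Cyp2a12 was lower, and their part in the Cyp2a12 difference was not tested.

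Cyp2a22 measured 5.84, 8.27 and 6.27 CPM in GF replicates 1 to 3, 6.63, 8.30 and 6.33 CPM in GF+SCFA replicates, and 6.07, 7.24 and 9.83 CPM in ConvD replicates. The groups overlapped in every comparison. Its log2 fold changes were 0.18 in ConvD and 0.06 in GF+SCFA against GF, and 0.11 in ConvD against GF+SCFA (edgeR adjusted p = 0.575, 0.921 and 0.713).

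**Figure D3:**
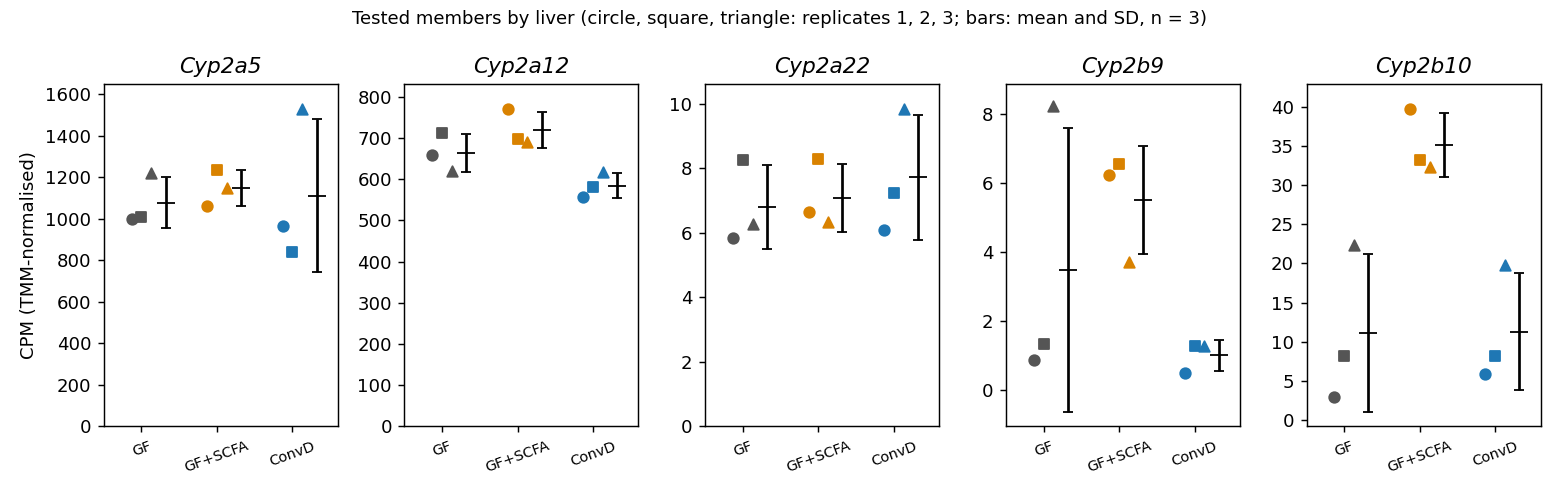
Points are the 3 livers of each group and bars the mean and SD (n = 3), in TMM-normalised CPM on separate y axes for the 5 tested members. Cyp2a12 differs little between livers, whereas Cyp2b9 and Cyp2b10 are high in GF replicate 3 (triangle) and in all 3 GF+SCFA livers, and Cyp2b10 also in ConvD replicate 3 (19.8 CPM).

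Cyp2b10 varied more among the germ-free livers than any Cyp2a gene that was tested. It measured 2.93, 8.12 and 22.4 CPM in GF replicates 1 to 3, 5.88, 8.12 and 19.8 CPM in ConvD replicates, and 39.8, 33.2 and 32.3 CPM in GF+SCFA replicates. All 3 GF+SCFA livers lay above all 6 others, and the GF and ConvD livers covered nearly the same range. In TPM the coefficient of variation was 96% among GF and 62.3% among ConvD livers, against 10.4% among GF+SCFA livers. The log2 fold change of GF+SCFA against GF was 1.64 (SE 0.727, 95% interval -0.13 to 3.40), higher in 3 of 3 livers, and did not pass the test (edgeR adjusted p = 0.438). ConvD against GF+SCFA stood at -1.65 (SE 0.729, interval -3.42 to 0.12, edgeR adjusted p = 0.176), and ConvD against GF at -0.01 (SE 0.758, interval -1.85 to 1.83, edgeR adjusted p = 0.998). Without GF replicate 3 the difference of GF+SCFA from GF was 2.65 (edgeR adjusted p = 0.166), and that of ConvD from GF was 1.00 (adjusted p = 0.424). Without ConvD replicate 3, ConvD stood at -0.69 against GF and at -2.33 against GF+SCFA (edgeR adjusted p = 0.118). Cyp2b10 was called in 0 of 20 settings in each comparison. Bile duct markers ran the other way between groups, lowest in the GF+SCFA livers where Cyp2b10 was highest. The 6 genes, none at 0 in all livers, summed to 26.6 to 30.8 TPM in GF+SCFA, 49.3 to 50.9 in GF and 44.2 to 76.0 in ConvD livers. Their part in the Cyp2b10 values was not tested.

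Cyp2b9, a gene that pulses of growth hormone repress in males, was high in the same GF liver as Cyp2b10. It measured 0.869, 1.34 and 8.22 CPM in GF replicates 1 to 3, 6.24, 6.55 and 3.71 CPM in GF+SCFA replicates, and 0.485, 1.27 and 1.28 CPM in ConvD replicates. The GF+SCFA livers lay above all ConvD livers, and GF replicate 3 was the highest of all 9. ConvD against GF+SCFA was -2.45 on the log2 scale (SE 0.945, 95% interval -4.73 to -0.17, lower in 3 of 3 livers), with an unadjusted p of 0.0388 and an edgeR adjusted p = 0.128. GF+SCFA against GF was 0.63 (SE 0.788, interval -1.26 to 2.53, edgeR adjusted p = 0.797), and ConvD against GF was -1.81 (SE 0.98, interval -4.18 to 0.55, edgeR adjusted p = 0.285). Leaving out GF replicate 3 moved both comparisons with GF: without it GF+SCFA against GF rose to 2.30 and passed the test (edgeR adjusted p = 0.0136), and ConvD against GF moved to -0.14. ConvD against GF+SCFA passed in 4 of 20 settings: without GF replicate 3, with only the 2 groups compared, with a dispersion that was not robust, and with DESeq2 (adjusted p = 4e-04 to 0.0345 in these, value -2.45 in each).

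**Figure D4:**
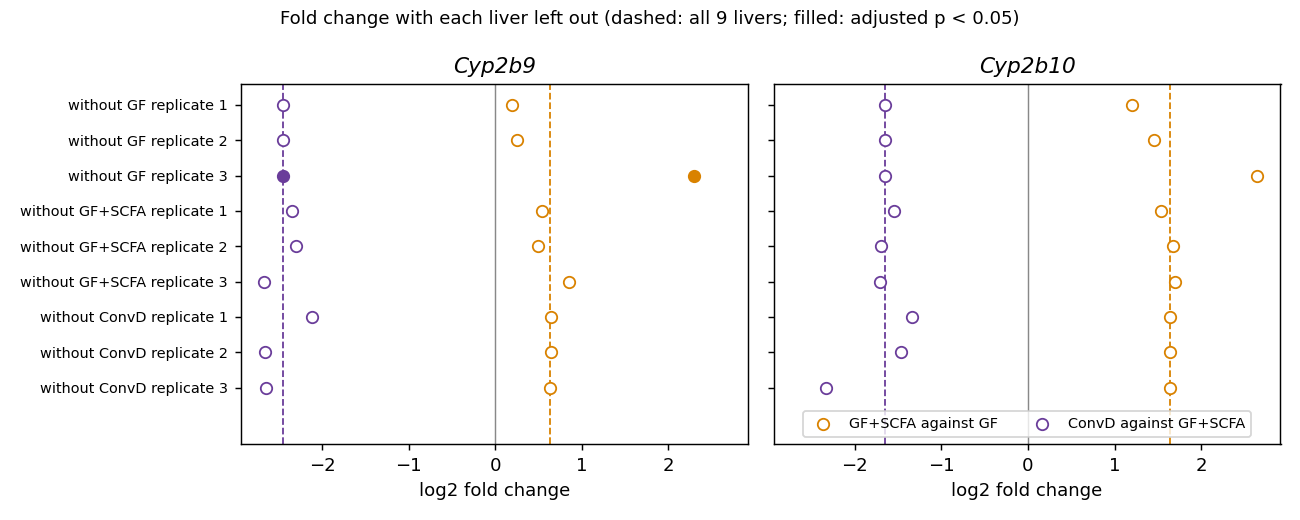
Log2 fold changes of Cyp2b9 (left) and Cyp2b10 (right) on the x axis, with each liver left out in turn on the y axis; dashed lines are the values with all 9 livers and filled points have an adjusted p under 0.05. Leaving out GF replicate 3 moves GF+SCFA against GF to 2.30 for Cyp2b9 and 2.65 for Cyp2b10.

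Cyp2b9 and Cyp2b10 followed each other across the 9 livers (Pearson r = 0.84 of log2 CPM), whereas Cyp2a5 and Cyp2a12 did so little (r = 0.17). These are descriptions with no p, since group means and GF replicate 3 enter them. The ratio of Cyp2b10 to Cyp2b9 in TPM ran from 2.73 in GF replicate 3 to 15.6 in ConvD replicate 3. Cyp2b10 made up 73.2% to 93.8% of Cyp2b transcripts, and Cyp2a5 made up 57% to 70.3% of Cyp2a transcripts.

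The receptors that act on these genes had lower transcript levels after colonisation. Nr1i3 measured 107 ± 13.9 CPM in GF, 121 ± 9.37 in GF+SCFA and 70.2 ± 6.75 in ConvD livers (SD, n = 3 each). It was lower in ConvD against GF by a log2 fold change of -0.60 (edgeR adjusted p = 0.00252) and against GF+SCFA by -0.78 (edgeR adjusted p = 0.000278), in all 20 settings each. Nr1i2 measured 75.6 ± 11.7, 94.3 ± 4.68 and 59.4 ± 5.84 CPM (SD, n = 3 each), with -0.35 in ConvD (edgeR adjusted p = 0.0422) and 0.32 in GF+SCFA (edgeR adjusted p = 0.27) against GF. The ConvD call of Nr1i2 held in 7 of 20 settings. It was lost when any of the 3 GF+SCFA livers, GF replicate 3, ConvD replicate 1 or ConvD replicate 2 was left out, at -0.35 to -0.21 (adjusted p = 0.0542 to 0.143), and with library totals, upper-quartile factors, a mean count of at least 50, a dispersion that was not robust, limma on TPM at either pseudocount or only the 2 groups compared, at -0.35 to -0.27 (adjusted p = 0.0519 to 0.203). Foxo1, a forkhead factor that acts as a coactivator of both receptors, fell from 46.8 ± 5.07 CPM in GF to 28.0 ± 1.60 in ConvD livers (SD over 3 livers each; -0.74 on the log2 scale, edgeR adjusted p = 0.00018). Over all genes edgeR called 5.93% higher and 6.9% lower in ConvD than in GF, which stands beside the list counts that follow. In a list of 19 genes for both receptors, their partners, chaperones and coregulators, 1 was called higher and 5 lower (median -0.21, all genes 0). The lower count was 3 without ConvD replicate 1 or ConvD replicate 2 and with library totals or upper-quartile factors.

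Other targets of CAR and PXR went in both directions. Of 35 tested, 11 were called higher and 3 lower in ConvD than in GF (median 0.11), while Cyp2b10 did not differ beyond its spread. The lower count was 1 without ConvD replicate 1 and 8 without ConvD replicate 3. Cyp2c55, a P450 of the arachidonic acid pathway, rose from 2.48 ± 0.254 CPM to 7.58 ± 0.573 (SD over 3 livers each; 1.61 on the log2 scale, edgeR adjusted p = 0.00017). Ephx1, the microsomal epoxide hydrolase, rose from 235 ± 18.2 CPM to 396 ± 49.3 (SD over 3 livers each; 0.75 on the log2 scale, edgeR adjusted p = 0.000911). Fmo5, a flavin monooxygenase, fell from 1114 ± 98.2 CPM to 727 ± 84.8 (SD over 3 livers each; -0.62 on the log2 scale, edgeR adjusted p = 0.00182). In a description added after the values were seen, 24 of the 35 had a Pearson r with Cyp2b10 above 0 across the 9 livers (median 0.24, all other tested genes -0.01). The highest, Gadd45b (r = 0.89), was likewise singled out afterwards, and it lay at 0.38 to 2.04 CPM.

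**Figure D5:**
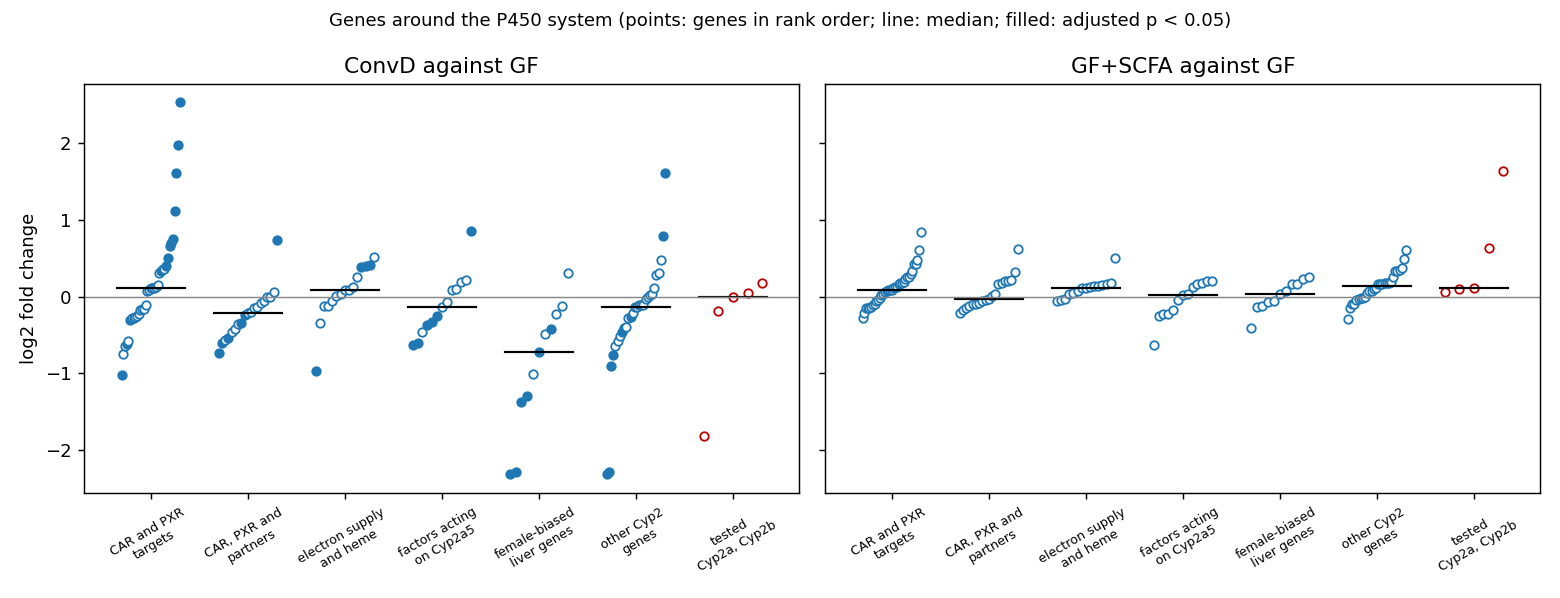
Each point is 1 tested gene, placed in rank order within its list on the x axis, with the log2 fold change on the y axis; lines are medians and filled points have an adjusted p under 0.05. The left panel (ConvD against GF) holds called genes in both directions beside the 5 tested Cyp2a and Cyp2b genes (right end), none of them called, and the right panel (GF+SCFA against GF) holds 0 called genes in these lists.

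Por, the reductase that serves all microsomal P450 enzymes, was lower in all ConvD livers (316 to 354 CPM) than in any GF (577 to 717 CPM) or GF+SCFA liver (678 to 733 CPM). Its log2 fold change in ConvD was -0.97 against GF (edgeR adjusted p = 5.05e-05) and -1.11 against GF+SCFA (edgeR adjusted p = 8.91e-06). Of 15 genes of electron supply and heme turnover, 3 were called higher and 1, Por, lower in ConvD than in GF (median 0.09). The higher count was 1 without GF replicate 2, GF replicate 3 or ConvD replicate 2, and the lower count was 2 without ConvD replicate 3.

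Another list held 13 transcription factors, RNA-binding factors and their partners known to act on Cyp2a5. Some of them, such as Nr1i3, were also in the receptor list. Of the 13, 1 was called higher and 5 lower in ConvD than in GF (median -0.14), beside a Cyp2a5 log2 fold change of 0.05. Ahr, the dioxin receptor, stood at -0.63 (56.3 ± 8.39 to 36.3 ± 4.87 CPM, SD, n = 3 each, edgeR adjusted p = 0.0181), and at -0.65 without ConvD replicate 2 (adjusted p = 0.0577). Hlf, a PAR-domain clock output factor, stood at -0.37 (edgeR adjusted p = 0.0374). The call of Hlf held in 12 of 20 settings: it was lost without GF replicate 1, GF replicate 2, ConvD replicate 1 or ConvD replicate 2 (-0.34 to -0.33), with library totals (-0.29) or upper-quartile factors (-0.31), and with limma on TPM at either pseudocount (-0.30 and -0.28). Foxa2, a forkhead factor of hepatocytes, was the higher one at 0.85 (edgeR adjusted p = 0.0211), and its call was lost without GF replicate 1, GF replicate 3, ConvD replicate 1 or ConvD replicate 3, at 0.71 to 0.86. The count of lower factors was 1 to 3 without GF replicate 1, GF replicate 2, GF+SCFA replicate 1, ConvD replicate 1 or ConvD replicate 2, and 2 with library totals or upper-quartile factors.

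Of 21 genes with female-biased expression, the class to which Cyp2b9 belongs, 11 passed the filter. Of these 0 were called higher and 6 lower in ConvD than in GF (median -0.72), beside 5.93% and 6.9% of all genes. The count was 2 without ConvD replicate 2 and 3 without ConvD replicate 1 or GF+SCFA replicate 2. Lifr, a cytokine receptor subunit, fell from 426 ± 64.8 CPM to 258 ± 16.1 (SD over 3 livers each; -0.72 on the log2 scale, edgeR adjusted p = 0.000605), and Prlr, the prolactin receptor, stood at -0.42 (edgeR adjusted p = 0.0106) and lost its call with limma on TPM at either pseudocount (-0.36 and -0.31). Cyp2c40, an arachidonic acid P450, fell from 53.6 ± 20.2 CPM to 11.0 ± 3.79 (SD over 3 livers each; -2.29 on the log2 scale, edgeR adjusted p = 0.0163), and stood at -2.12 and -2.19 without ConvD replicate 1 and ConvD replicate 2 (adjusted p = 0.0571 and 0.0656). Cyp2b9, at -1.81 (interval -4.18 to 0.55), had the same sign without passing. Without GF replicate 3 it stood at -0.14, so most of its difference rested on that liver. Of 16 tested genes with male-biased expression, 1 was called higher and 2 lower in ConvD than in GF (median -0.10). Of 12 tested genes of growth hormone and STAT5 signalling, 1 was called higher and 1 lower (median 0.05).

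Among the neighbours in the cluster, Cyp2f2, a P450 of lung and liver that acts on naphthalene, measured 1156 ± 211 CPM in GF, 1183 ± 79.5 in GF+SCFA and 1005 ± 83.2 in ConvD livers (SD, n = 3 each). Its log2 fold change in ConvD against GF was -0.20 (edgeR adjusted p = 0.295). Cyp2g1, an olfactory P450, and Cyp2s1 were low, at 2.80 to 3.78 and 0.331 to 0.409 CPM in the group means. With all 9 livers 0 of these 3 tested neighbours were called in edgeR or DESeq2 in any comparison, 1 was called by limma on TPM in ConvD against GF+SCFA, and 1 was called in ConvD against GF without GF replicate 3. At an unadjusted p under 0.05 the counts were 0 in both comparisons with GF and 1 in ConvD against GF+SCFA.

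Among 27 other tested Cyp2 genes, 2 were called higher and 7 lower in ConvD than in GF (median -0.14), with 3 lower without ConvD replicate 1 or ConvD replicate 2. Some of the 27 also count in lists above, such as Cyp2c55 among the targets and Cyp2c40 among the female-biased genes. These list counts are therefore not independent of each other. Cyp2c68 stood at -0.77 (260.5 ± 11.8 to 153 ± 20.4 CPM, SD, n = 3 each, edgeR adjusted p = 0.000194) in ConvD against GF. Of 13 markers of the pericentral zone, where Cyp2a5 is expressed, 0 were called higher and 3 lower in ConvD than in GF (median -0.09). They include Lgr5, an R-spondin receptor that strengthens Wnt signalling (-0.71, edgeR adjusted p = 0.0108), and Slc1a2, a glutamate carrier (-0.53, edgeR adjusted p = 0.00263). Lgr5 measured 4.66 ± 0.241 CPM in GF+SCFA and 4.85 ± 0.576 CPM in ConvD livers, beside 7.99 ± 1.59 CPM in GF livers (SD over 3 livers each), although GF+SCFA against GF did not pass the test (-0.77, edgeR adjusted p = 0.119). Markers of the periportal zone, at the other end of the lobule, gave much the same counts: of 12 tested, 1 was called higher and 3 lower in ConvD than in GF (median -0.14). The lower count there was 1 without ConvD replicate 2, with library totals or with limma on TPM, and the higher count was 0 with the replicate block, with only the 2 groups compared, and when any liver other than GF replicate 2 or ConvD replicate 2 was left out.

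With fatty acid water alone, 0 genes of these lists were called against GF in edgeR with all 9 livers, beside 0.0415% of all genes. Medians were 0.09 over the 35 targets, -0.03 over the 19 receptor genes, 0.12 over the 15 electron and heme genes, 0.02 over the 13 Cyp2a5 factors, 0.03 over the 11 female-biased genes, 0.16 over the 27 other Cyp2 genes and 0.02 over the 13 pericentral markers (all genes -0.01). At an unadjusted p under 0.05 the counts were 6, 3, 3, 2, 0, 4 and 2 in the same order, beside 12.3% of all genes. DESeq2 called 1, 1, 0, 1, 0, 0 and 1, beside 82 of all genes. GF replicate 3 was the liver with high Cyp2b9 and Cyp2b10. Without it edgeR called 6 of the 35 targets and 1, 0, 1, 0, 2 and 1 genes of the other lists. Over all genes the count was then 173. Fmo5 stood at 1498 ± 104 CPM in GF+SCFA livers (SD, n = 3), with no overlap with GF and a log2 fold change of 0.43 (edgeR adjusted p = 0.142), and it passed without that liver at 0.49 (adjusted p = 0.0342). Dbp, another PAR-domain clock output factor, stood at -0.64 (edgeR adjusted p = 0.27) and at -0.84 without that liver (adjusted p = 0.000515). Nr1i2 passed without it at 0.45 (adjusted p = 0.0182).

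The genes most like 3 of the members were picked by Pearson r of log2 CPM over the 9 livers, out of 12037 tested, as a description with no p. For Cyp2a12 they were Usp7 (r = 0.957), Cyp2c67 (r = 0.955) and Slc46a3 (r = 0.954), and Cyp2c67 was itself called lower in ConvD than in GF (-0.47, edgeR adjusted p = 0.0047). For Cyp2b10 they were Alkbh8 (r = 0.957), Psmd6 (r = 0.931) and Mapkapk2 (r = 0.928). For Cyp2a5 they were Gm12657 (r = 0.925), Echs1 (r = 0.923) and Ndfip2 (r = 0.923).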

How the data were processed

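Liver messenger RNA of the 9 samples was sequenced from Illumina TruSeq Stranded mRNA libraries, per the labels' protocols. Bowtie2 and RSEM 1.2.23 with build mm9 are named in the submitters' processing notes; the strand setting is not given in the sources used here. The authors deposited expected counts without normalisation. Of the values above 0, 46.7% were not whole (tolerance 0.005), since RSEM divides shared reads. The TPM deposited by the authors are scaled for length and depth. FPKM values were not used here.

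Expected counts were rounded and fitted with edgeR 4.0.16 in R 4.3.3: filterByExpr (minimum count 10, 12037 genes kept), TMM factors (0.935 to 1.06), 3 group means over all 9 samples and robust quasi-likelihood F tests (6 residual degrees of freedom before moderation), with Benjamini-Hochberg adjustment over all tested genes. SE is the size of the log2 fold change over the square root of F, and the 95% interval uses the t quantile at the moderated degrees of freedom. The biological coefficient of variation was 10.6%. The scripts were tested on simulated counts. No 2 libraries of a group were copies (chi-square per degree of freedom 11.1 to 53.5). Alternatives used DESeq2 1.42.0, limma 3.58.1, other scaling and filters, the replicate block and each library left out.

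The members and gene lists were chosen with earlier results of these data known; 305 of 307 list entries were found. Named genes are the members, genes drawn from (not all of) the 4 with the smallest adjusted p per list in ConvD against GF and the 2 in each other comparison, and 3 genes by likeness; exceptions are stated. Foxo1, Ephx1, Lifr and Prlr were added last, from the same 4. Coding-sequence identity, shared 50-base stretches and the Cyp2b10 correlations with receptor targets were added after the tables were seen. No protein sequence was used here, so coding sequences took the place of the planned protein comparison.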

Additional observations from a re-analysis of the deposited data

How the results depend on the processing

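In ConvD against GF 0 members were called under all 20 alternatives. In GF+SCFA against GF the count was 0 to 1 with each library left out (1, Cyp2b9, without GF replicate 3) and 0 otherwise. In ConvD against GF+SCFA it was 2 with DESeq2, with a dispersion that was not robust and with only the 2 groups compared, 0 with limma on log2(TPM + 0.1) or log2(TPM + 1), and 0 to 2 with each library left out: 2 without GF replicate 3 or ConvD replicate 3, 0 without GF+SCFA replicate 1, ConvD replicate 1 or ConvD replicate 2. The cause was not tested.

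Replicate numbers were not used as pairs, since the labels do not say that a number marks a shared litter, cage or day. Deviations of same-numbered samples correlated at -0.066 to 0.139. Differently numbered samples were not compared, so these values cannot show whether the samples were paired. With the replicate block the members called were 0, 0 and 1, as without it, and Cyp2b10 in ConvD against GF was 0.08.

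Values that changed sign were uncalled and mostly near 0. Cyp2b10 in ConvD against GF was 0.04 with library totals, 0.05 with upper-quartile factors, 0.02 with DESeq2, 0.01 with a mean count of at least 50, and 0.33 and 0.26 with limma on TPM. Cyp2a5 in ConvD against GF+SCFA was 0.02 with library totals and 0.01 with upper-quartile factors. With each library left out, ConvD against GF ran from -0.69 to 1.00 for Cyp2b10, -0.25 to 0.22 for Cyp2a5 and -0.03 to 0.34 for Cyp2a22. Cyp2a22 ran from -0.07 to 0.23 in GF+SCFA against GF and from -0.10 to 0.26 in ConvD against GF+SCFA, where Cyp2a5 ran from -0.35 to 0.12 and passed at -0.35 only, without ConvD replicate 3.

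Over all genes, 1544 were called in ConvD against GF, 972 and 1019 with limma, and 849 to 1466 with each library left out (849, 918 and 936 without ConvD replicate 2, GF replicate 1 and ConvD replicate 1). Of these calls 714 were higher and 830 lower; with library totals 73.1% and with upper-quartile factors 66.1% were higher, and medians moved to 0.08 and 0.06. In ConvD against GF+SCFA the 2216 calls became 1383 to 2393 with each library left out, with 72.4% and 66.8% higher under those scalings. In GF+SCFA against GF the 5 calls became 9 with library totals, 82 with DESeq2, 24 without a filter, 1 with a dispersion that was not robust, 1 with limma at either pseudocount, and 0 to 173 with each library left out, the 173 without GF replicate 3.

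With 3 livers a group and the spread of Cyp2b9 and Cyp2b10 among GF livers, the intervals span over 3 log2 units. Depth limits Cyp2b13, Cyp2b19, Cyp2b23 and Cyp2a4, which gave no calls in the fit without a filter (15830 genes).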
